A study of Aspergillus nidulans with 24 samples.

Results

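AreB is a zinc finger transcription factor of the GATA family in the filamentous fungus Aspergillus nidulans. It binds the same kind of DNA motif as AreA, the activator that lets the fungus use nitrogen sources other than ammonium and glutamine, and it is known as a negative regulator of nitrogen catabolism. Urea does not repress the use of other nitrogen sources, while glucose represses the use of other carbon sources through the repressor CreA. Deletion of areB was compared here with wild type in mycelium grown on glucose with urea, which pairs a repressing carbon source with a non-repressing nitrogen source.

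The comparison rested on 6 of the 24 libraries of the study, chosen by their strain and medium labels, with 3 biological replicates of the areB deletion strain and 3 of the wild type. The deletion strain carried areB{delta}::A.f. pyrG with pyrG89, and also argB2, nkuA{delta}::argB, pabaB22 and riboB2, whereas the wild type carried biA1. The strains therefore differed at nkuA, a DNA end-joining gene, and at several nutritional markers as well as at areB, so an effect of areB and an effect of strain background cannot be told apart for any gene. Both strains grew in minimal medium with 1% glucose and 5 mM urea at 37 °C, and the labels give a growth time of 9 to 11 h for every culture, not the time of each. Ribosomal RNA was depleted from total RNA, complementary DNA was amplified over 14 cycles, and paired reads of 100 bp were sequenced. The other 18 libraries belonged to the same strains on glucose with ammonium, fructose with urea and fructose with ammonium.

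The values came from the authors' deposited table of 8728 genes, of which 1483 had a gene symbol. For each gene the table gives the authors' mean of normalized counts over the libraries of each group, a fold change and an adjusted p, and it gives no value per library. Depth per library, the spread between replicates and the limit set by a count of 0 are therefore unknown. The means are not corrected for gene length. A gene was called higher or lower when the authors' adjusted p was under 0.05. Each log2 fold change sets areB deletion against wild type and is given with a standard error recovered from the fold change and its adjusted p, and this is the error written after ± below. Where the adjusted p fixed none, the median standard error of the same gene in the other media was taken.

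The deleted loci were looked at first. In the authors' deposited table areB was listed at 0 in the deletion against a mean of 93.9 in wild type (adjusted p 1.1e-20). nkuA was likewise listed at 0 in the deletion against 105 in wild type (adjusted p 4.9e-21). The other marker loci pyrG, argB, pabaA, pabaB, riboB and biA were not called in the authors' deposited table, with log2 fold changes between -0.59 for argB and 0.78 for pyrG. The tissue label, mycelium, was set against marker genes of other cell types. Of 5 measured markers of conidiophores and conidia none was called, brlA, the regulator that starts conidiation, was listed at 0 in both strains, and the authors' means summed to 122 in the deletion and 106 in wild type. The 4 markers of Hülle cells and fruiting bodies summed to 215 in the deletion and 212 in wild type, with none called. The 3 measured markers of dormant or germinating spores, conF, conJ and dlpA, summed to 121 in the deletion and 29.7 in wild type, and dlpA was called higher. The part of spores in the results was not tested.

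On glucose with urea the areB deletion strain had many more rises than falls. Of 8639 genes with an adjusted p, 162 were called in the authors' deposited table, which is 1.88% of the genes tested. There were 120 rises (1.39%) and 42 falls (0.486%). With an additional minimum of 1 on the absolute log2 scale, 109 rises (1.26%) and 37 falls (0.428%) were left, 1.69% together. Larger rises were common among them: 49 reached a log2 fold change of 2 and 16 reached 3. As RNA from whole cultures was measured, fewer cells of a kind and less RNA per cell cannot be told apart. A symbol was attached to 17 of the genes that rose and 5 of those that fell, so 140 of the 162 called genes carried only a systematic name.

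**Figure D1:**
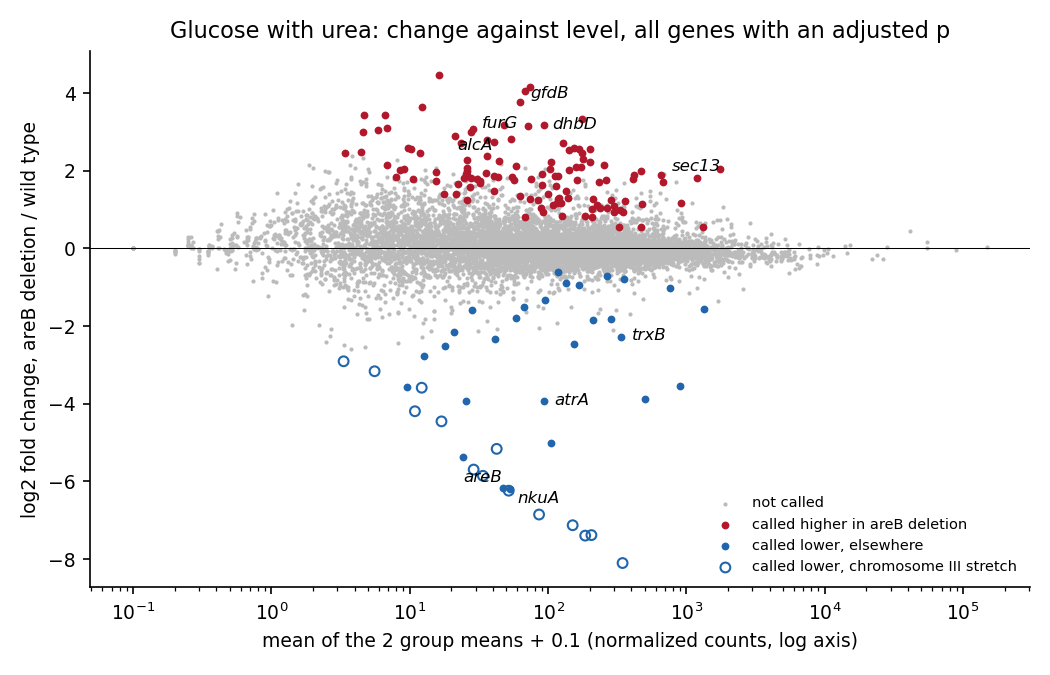
Each point is a gene with an adjusted p: the y axis gives its log2 fold change on glucose with urea, areB deletion against wild type, and the x axis the mean of both group means plus 0.1, in normalized counts on a log axis. Colours separate the 120 genes called higher from the 42 called lower, and open circles mark the 14 called genes of the chromosome III stretch, which reach the lowest fitted fold changes although no fold can be read from a mean of 0.

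Many genes that rose had low counts in wild type, a description only, since these counts also enter the contrast. The median of the authors' means for the 120 genes was 133 in the deletion and 33.3 in wild type, where all genes tested had a median of 89.6. In the wild type 39 of the 120 genes (32.5%) had a mean under 10, against 17.4% of all genes tested, and 26 had a mean of at least 100. In the deletion strain 67 of the 120 had a mean of at least 100. The deposited fold changes were moderated, so the ratios of the authors' means were larger: over the 113 called genes whose means both exceeded 5, a median share of 0.945 of the log2 ratio of means was retained. That share does not cover genes with lower means, some of them among the largest rises. For dhbD the ratio of means was 108 and the deposited log2 fold change 3.17, and for AN7954 they were 161 and 4.46. At the threshold of the authors' deposited table, AN12035, with a predicted carbonate dehydratase domain, lay just inside at 0.0499 (12.8 in the deletion, 3.06 in wild type), and AN9344 just outside at 0.0502 (6.98 in the deletion, 0.401 in wild type).

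The only run of more than 2 neighbouring genes that rose was the group of furG and 3 genes beside it on chromosome II. In the gene order of RefSeq assembly ASM1142v1 the genes AN7952, AN7953, AN7954 and furG follow each other. AN7952, with a predicted hydrolase domain, had an authors' mean of 333 in the deletion against 15.6 in wild type, and the authors' deposited table gives a log2 fold change of 3.34 ± 0.69 (adjusted p 2.0e-04). AN7953, a predicted 2-oxoglutarate-dependent dioxygenase, had a mean of 135 in the deletion against 7.19 in wild type, a log2 fold change of 3.15 ± 0.70 in the authors' deposited table (adjusted p 8.6e-04). AN7954, which has no described function, had a mean of 32.4 in the deletion and 0.201 in wild type, and its log2 fold change of 4.46 ± 0.71 was the largest rise in the authors' deposited table for this medium (adjusted p 9.8e-08). furG, a homolog of the yeast uracil transporter Fur4p whose mutant is described as unaffected in uracil transport, had a mean of 51.1 in the deletion against 4.07 in wild type. Its log2 fold change in the authors' deposited table was 3.00 ± 0.65 (adjusted p 4.2e-04).

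The genes on either side of this group did not pass the test. AN7951, the neighbour on one side and a predicted DNA-binding transcription factor, had means of 108 in the deletion and 99.1 in wild type, a log2 fold change of 0.12 in the authors' deposited table. On the other side AN7959 had means of 3.76 in the deletion and 0.201 in wild type (adjusted p 0.87 in the authors' deposited table). All 4 genes of the group were also called higher on fructose with urea, where AN7952 had a mean of 610 in the deletion and 36.0 in wild type. On fructose with ammonium AN7954 alone of the 4 was called in the authors' deposited table (log2 fold change 2.40, adjusted p 0.048), and on glucose with ammonium none was. AN7952 then had means of 165 in the deletion and 35.9 in wild type on fructose with ammonium, and 21.6 in the deletion and 11.1 in wild type on glucose with ammonium. The difference in effect between both nitrogen sources on glucose was largest for AN7953, at 3.16 ± 0.99 on the log2 scale by a normal test from the authors' deposited values (unadjusted p 0.0015), and it did not pass after adjustment over 8357 genes (adjusted p 1.0). This call depends on the scaling of the test: with the deviates divided by their robust SD, an alternative chosen after seeing the data, all 4 genes passed. The adjusted p was then 7.8e-06 for AN7953, 9.5e-05 for AN7954 and for AN7952, and 0.0063 for furG. Of the 8357 genes behind that SD, 665 had a standard error of their own in both media. The SD thus rests mostly on borrowed errors, and no difference between nitrogen sources is concluded from the rescaled values.

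**Figure D2:**
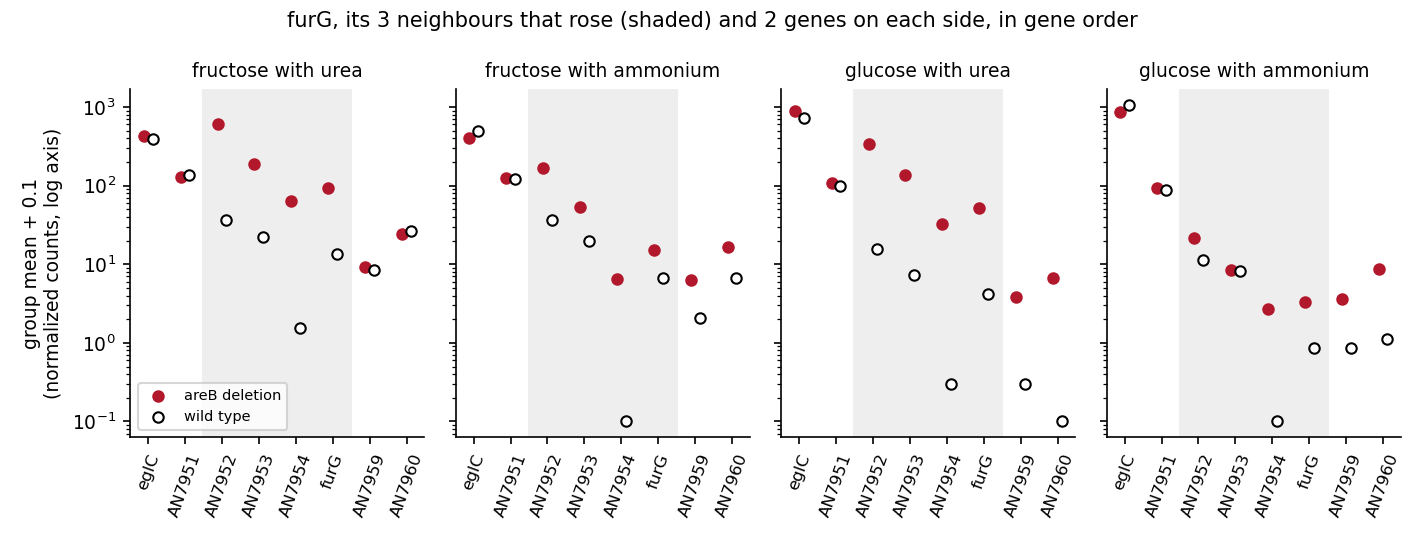
Authors' group means plus 0.1, in normalized counts on a log axis, for furG, the 3 neighbours that rose with it (shaded) and 2 genes on each side, with the areB deletion strain as filled points and the wild type as open points in each of the 4 media. On glucose with urea AN7952 stands at 333 in the deletion and 15.6 in wild type, while AN7951 outside the shaded group stands at 108 and 99.1 in those strains.

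Another 10 of the genes that rose lay in 5 pairs of neighbours. In the pair with the largest rises, AN10845 had a mean of 131 in the deletion and 3.97 in wild type, a log2 fold change of 4.05 ± 0.60 in the authors' deposited table (adjusted p 6.7e-09). Next to it, dhbD, a putative 2,3-dihydroxybenzoate carboxylyase that would act on a phenolic acid, had a mean of 184 in the deletion and 1.70 in wild type, a log2 fold change of 3.17 ± 0.76 in the authors' deposited table (adjusted p 0.0029). The other pairs, all called, were AN3873 with AN3872, AN5315 with AN5312, AN2586 with AN2587, and AN10123 with AN10118. AN3873 is a putative zinc-binding oxidoreductase and AN10118 a predicted glycosyltransferase of glycosylphosphatidylinositol anchor synthesis.

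Carbon metabolism was represented by single enzymes rather than by whole pathways. gfdB, an NAD-dependent glycerol 3-phosphate dehydrogenase that leads carbon from glycolysis to glycerol, had a mean of 119 in the deletion against 5.80 in wild type. Its log2 fold change was 3.76 ± 0.55 in the authors' deposited table (adjusted p 2.7e-09), and it was called higher in the other 3 media too, at 2.45 on fructose with urea, 2.13 with ammonium in place of urea, and 2.80 on glucose with ammonium. alcA, the alcohol dehydrogenase of ethanol use that glucose normally keeps low, had a mean of 67.1 in the deletion against 4.60 in wild type, a log2 fold change of 2.37 ± 0.69 in the authors' deposited table (adjusted p 0.036). Its partners in ethanol use did not pass: the aldehyde dehydrogenase gene aldA had means of 197 in the deletion and 110 in wild type, and the pathway activator gene alcR 13.0 in the deletion and 10.5 in wild type. phk, a phosphoketolase that splits pentose phosphates, had a mean of 120 in the deletion and 30.1 in wild type, a log2 fold change of 1.78 ± 0.50 in the authors' deposited table (adjusted p 0.024).

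The vesicle traffic genes sec13 and vps20 rose, 2 of 13 tested on that list against 1.88% of all genes. As the list was chosen with earlier results of these data known, no enrichment is read from this share. The genes fimA, capA and gcpF, described here because they carry a symbol, rose too. sec13, which in yeast is a coat protein of vesicles leaving the endoplasmic reticulum and a nuclear pore component, had a mean of 1035 in the deletion against 271 in wild type. Its log2 fold change of 1.90 ± 0.20 had an adjusted p of 7.0e-18, the smallest for a rise in the authors' deposited table. vps20, a subunit of the ESCRT complex that sorts membrane proteins into vacuoles, had a mean of 408 in the deletion and 118 in wild type, 1.76 ± 0.21 in log2 units in the authors' deposited table (adjusted p 3.8e-14). Both were called higher in the other 3 media as well. The actin-bundling fimbrin gene fimA, with means of 1573 in the deletion and 1075 in wild type, had the smallest log2 fold change of any called gene in the authors' deposited table, 0.54 ± 0.15 (adjusted p 0.025). capA, which encodes an adenylate cyclase-associated protein, had a mean of 121 in the deletion against 61.8 in wild type, 0.95 ± 0.23 in log2 units in the authors' deposited table (adjusted p 0.0025). gcpF, a gamma-tubulin complex protein gene, had means of 149 in the deletion and 69.1 in wild type, and 1.11 ± 0.21 in log2 units in the authors' deposited table (adjusted p 2.5e-05).

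The remaining rises with a symbol covered stress, signalling and secondary metabolism. dlpA, a dehydrin-like gene of a family linked to survival of drying, had a mean of 77.5 in the deletion against 11.1 in wild type, with a log2 fold change of 2.25 ± 0.61 in the authors' deposited table (adjusted p 0.017). npgA, which encodes the enzyme that arms polyketide and nonribosomal peptide synthases with their phosphopantetheine arm, had a mean of 174 in the deletion against 54.7 in wild type, 1.60 ± 0.36 in log2 units in the authors' deposited table (adjusted p 8.2e-04). CYP623B2 was the 1 call among 59 cytochrome P450 genes tested, a share of 1.7% that is close to the 1.88% of all genes tested. It had means of 760 in the deletion and 171 in wild type (adjusted p 2.6e-04 in the authors' deposited table). prpA, the poly(ADP-ribose) polymerase gene of the DNA damage response, had means of 172 in the deletion and 75.0 in wild type, 1.17 ± 0.28 in log2 units in the authors' deposited table (adjusted p 0.0025). hk2, a putative phosphotransfer protein gene, ngn22, a putative acetyltransferase gene, and binA, whose transcript is described as induced by bafilomycin, had log2 fold changes of 1.87, 1.27 and 1.25 in the authors' deposited table, all called.

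**Figure D3:**
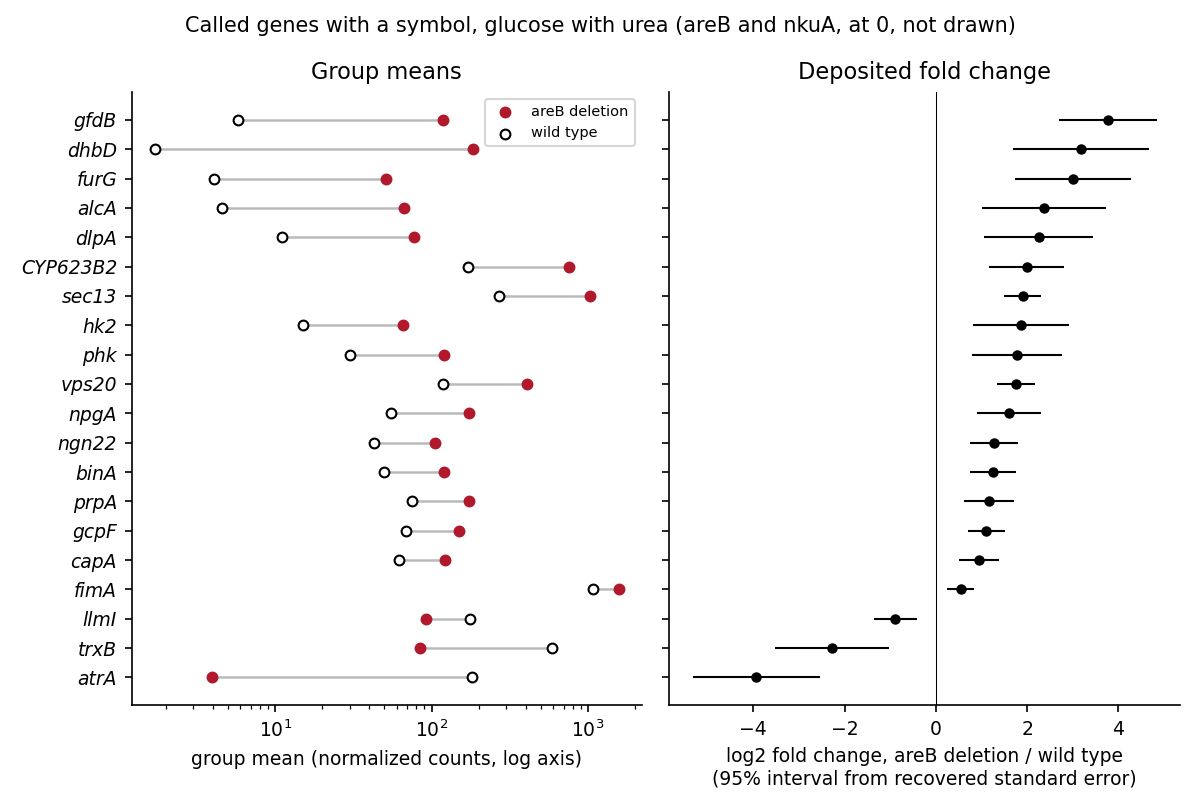
Called genes with a symbol, without areB and nkuA: the left panel shows the authors' group means in normalized counts on a log axis (areB deletion filled, wild type open) and the right panel the deposited log2 fold change with its 95% interval from the recovered standard error. The 17 genes that rose lie to the right of 0, from fimA at 0.54 to gfdB at 3.76, and llmI, trxB and atrA lie to the left.

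Several of the largest rises were in genes with no described function. AN7087 had a mean of 145 in the deletion and 3.31 in wild type, a log2 fold change of 4.15 ± 0.66 in the authors' deposited table (adjusted p 1.3e-07). AN11182 had a mean of 23.3 in the deletion and 0.898 in wild type, with 3.65 ± 0.59 in log2 units in the authors' deposited table (adjusted p 1.6e-07). AN6668 had a mean of 89.2 in the deletion and 6.83 in wild type, with 3.17 ± 0.55 (adjusted p 1.7e-06) in the authors' deposited table. AN3877, also without a described function, had means of 11.5 in the deletion and 0.201 in wild type and was called. Membrane transporters stood beside them: AN5370, a predicted transporter, had means of 52.6 in the deletion and 4.10 in wild type, and AN8972, another, 39.0 in the deletion and 3.46 in wild type, both called. AN2039, with an oxidoreductase domain, and AN2472 had means of 13.1 and 13.5 in the deletion and were listed at 0 in wild type. The highest mean in the deletion among the genes that rose, 2886 against 617 in wild type, belonged to AN9001, a gene of unknown function named here after its values were seen. AN6573, also named after its values were seen, has orthologs with a role in urea metabolism and had a mean of 49.9 in the deletion against 14.5 in wild type, a log2 fold change of 1.68 ± 0.42 in the authors' deposited table (adjusted p 0.0047).

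The falls consisted in large part of genes that lie together. At the start of chromosome III, in RefSeq order, the 23 genes of the table from AN5092 to AN5067 were listed at 0 in the deletion on glucose with urea. Their wild type means ran between 0.201 and 691. The stretch was bounded by these values. It runs from the chromosome's start up to the first gene that is not at 0 in the deletion and above 0 in wild type. RefSeq places 34 genes on this stretch, of which 11 were not analysed here. Of the 23 genes, 14 were called lower in the authors' deposited table, with wild type means of 6.45 to 691, and 9 were not called, with wild type means of 0.201 to 28.3. The highest wild type means in the stretch were those of AN5067, a putative transporter of the major facilitator superfamily (0 in the deletion, 691 in wild type), AN5068, with an arylformamidase domain of tryptophan breakdown (0 in the deletion, 411 in wild type), and AN10625, with a ribonuclease H domain (0 in the deletion, 371 in wild type). Also called there were AN5069, AN5079, AN5082, AN5076, AN5078, AN10627, AN5083, AN5070, AN5090 and AN5075, of which AN5082 and AN10627 have a GTPase domain of microtubule proteins. SpoC1-C1C and SpoC1-C1D, genes known for RNA of conidia, are part of the stretch, and they were listed at 0 in the deletion with wild type means of 3.39 and 0.201. The outermost gene, AN5092, encodes a putative telomere-linked RecQ helicase and had a mean of 0 in the deletion and 24.2 in wild type. The next gene inward, AN5060, was at 0 in both strains on glucose with urea. It was not at 0 on fructose, with means of 93.7 in the deletion and 24.5 in wild type with urea. With ammonium on fructose its means were 179 in the deletion and 55.3 in wild type. On glucose with urea cdcA, beyond AN5060, had means of 108 in the deletion and 111 in wild type. In the other 3 media 22 of the 23 genes were at 0 in the deletion too, and the exception, AN5068, had a mean of 0.373 there on fructose with ammonium against 1399 in wild type. No fold is given here for genes listed at 0.

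**Figure D4:**
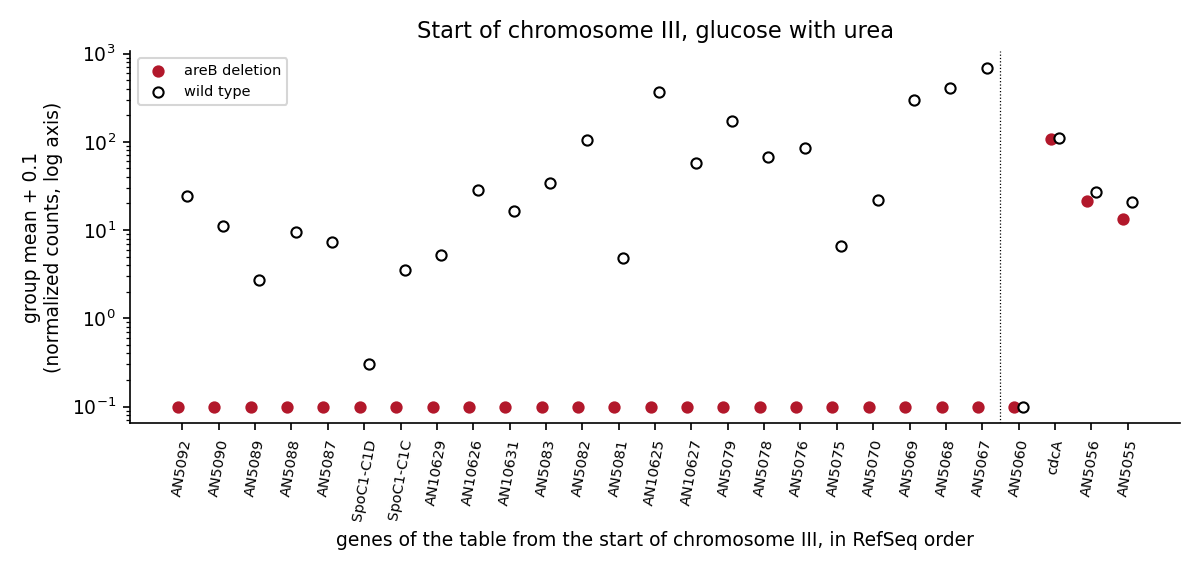
Authors' group means plus 0.1, in normalized counts on a log axis, for the genes of the table at the start of chromosome III in RefSeq order, on glucose with urea, with areB deletion as filled points and wild type as open points. The dotted line ends the stretch, which was bounded by these values. The 23 genes left of the line sit at the bottom of the axis in the deletion and between 0.201 and 691 in wild type. To the right of the line cdcA stands at 108 in the deletion and 111 in wild type.

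A further 4 genes called lower were listed at 0 in the deletion, namely areB, nkuA, AN12279 and AN12280. AN12279, a putative chitinase, had a wild type mean of 210, and AN12280, with a DNA-binding domain, 48.6. Neither of these was matched to RefSeq, so their place in the genome is not given. This left 24 falls with a deletion mean above 0, and their wild type means ran between 18.6 and 2048. The 4 genes at 0 and the chromosome III stretch thus made up 18 of the 42 falls.

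Beyond these, the 24 falls included transport, redox and amino acid genes. AN3378, AN2844, AN3073, AN0662 and AN7539 below were picked from them after their values were seen. atrA, a plasma membrane ATP-binding cassette transporter of the kind that exports drugs, had a mean of 3.92 in the deletion against 182 in wild type, a log2 fold change of -3.94 ± 0.71 in the authors' deposited table (adjusted p 6.0e-06). trxB, a putative thioredoxin reductase gene, had a mean of 84.3 in the deletion against 586 in wild type, -2.27 ± 0.64 in log2 units in the authors' deposited table (adjusted p 0.024). AN3378, a putative homocysteine S-methyltransferase of sulfur amino acid metabolism, had a mean of 1.58 in the deletion against 49.5 in wild type, with -3.93 ± 0.62 in the authors' deposited table (adjusted p 9.2e-08). AN2844, with no described function, had a mean of 29.9 in the deletion and 979 in wild type, and -3.87 ± 0.70 in log2 units in the authors' deposited table (adjusted p 6.0e-06). llmI, a LaeA-like methyltransferase gene, fell less, with means of 92.8 in the deletion and 175 in wild type and a log2 fold change of -0.89 ± 0.24 in the authors' deposited table (adjusted p 0.015). AN3073, a putative asparaginyl-tRNA synthetase, had a mean of 82.0 in the deletion and 337 in wild type, -1.85 ± 0.48 in the authors' deposited table (adjusted p 0.0087). AN0662, a putative adenosine deaminase, fell too, with means of 114 in the deletion and 220 in wild type (adjusted p 1.5e-04 in the authors' deposited table).

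A gene of the cell surface fell too. AN7539, a putative hydrophobin whose transcript is described as induced by nitrate, had a mean of 59.6 in the deletion against 1725 in wild type on glucose with urea. Its log2 fold change was -3.55 ± 0.80 in the authors' deposited table (adjusted p 9.9e-04). On fructose with urea it had means of 18.9 in the deletion and 594 in wild type and was called lower as well. Both strains were low on ammonium: on fructose 0.373 in the deletion and 2.27 in wild type, and on glucose 0.837 in the deletion and 5.68 in wild type, with no call in the authors' deposited table. The difference in effect between urea and ammonium on glucose was -3.02 ± 1.13 on the log2 scale from the authors' deposited values (unadjusted p 0.0072, adjusted p 1.0). It passed only with rescaled deviates (adjusted p 2.2e-04), a scaling chosen after seeing the data that rests mostly on borrowed errors.

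No regulator of nitrogen or carbon use other than areB itself passed the test. areA had means of 195 in the deletion and 186 in wild type, with a log2 fold change of 0.06 ± 0.48 in the authors' deposited table (adjusted p 1.0). nmrA, which encodes a repressor of AreA, had means of 62.9 in the deletion and 59.9 in wild type, and the bZIP factor gene meaB 26.0 in the deletion and 34.2 in wild type. tamA, for a co-activator of AreA, had means of 39.1 in the deletion and 39.9 in wild type, and the carbon repressor gene creA 64.4 in the deletion and 42.1 in wild type, 0.47 ± 0.65 in log2 units in the authors' deposited table. A missed threshold does not show equal levels, and the errors of these 5, taken from the same genes in the other media because an adjusted p of 1.0 fixes none, lay between 0.35 and 0.67 on the log2 scale. Of 11 nitrogen regulators tested only areB, the deleted gene, was called, with a median log2 fold change of 0.06 over the list. Of 13 carbon regulators none was called, with a median of 0.21. As only 1.88% of all genes tested were called, lists this short would mostly hold no call. Nothing about regulators as a group is read from such counts. Over all genes tested the median was 0.00, with 4305 above 0 and 4305 below 0. Among 6 GATA factors areB alone was called.

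Lists of nitrogen assimilation genes held few calls or none. As only 1.88% of all genes tested were called, lists this short would mostly hold no call. No result about nitrogen genes is read from these counts. None of 11 nitrate assimilation genes passed, with a list median of -0.08, and the nitrite reductase gene niiA had means of 2460 in the deletion and 2250 in wild type. None of the 3 urea and urease genes measured passed: the urea transporter gene ureA had means of 318 in the deletion and 227 in wild type, the urease gene ureB 1183 in the deletion and 659 in wild type, and ureD 594 in the deletion and 719 in wild type. The authors' deposited table gives ureB an adjusted p of 0.31. None of 6 genes of ammonium uptake and glutamate synthesis was called, with a median of -0.31, and the ammonium transporter gene meaA had means of 564 in the deletion and 1191 in wild type, -0.84 ± 0.73 in log2 units in the authors' deposited table. No call was made among 5 genes of proline use, 4 of arginine use, 8 of amide, lactam and gamma-aminobutyrate use and 6 of quinate use, and furG was the only one of 15 genes of purine and pyrimidine uptake and breakdown. The 5 measured genes of phenylalanine and tyrosine breakdown had no adjusted p.

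Lists of carbon use, development and cell structure gave single calls or none, and each count here is read against the 1.88% of all genes tested that were called. With lists this short a single call lies above that share. alcA was the 1 call among 9 genes of ethanol use, phk the 1 among 13 of glycolysis, dlpA the 1 among 10 spore and stress genes, and npgA the 1 among 6 of penicillin synthesis and phosphopantetheinyl transfer. trxB was the 1 call among 17 redox genes, atrA among 5 drug transporters and llmI among 17 light, velvet and LaeA-like genes, all 3 lower. The spore and stress list had 9 of 10 log2 fold changes above 0 and a median of 0.57, where conJ had means of 18.0 in the deletion and 1.00 in wild type without passing the test (adjusted p 0.54 in the authors' deposited table). No gene was called among 14 of acetate use and gluconeogenesis, 11 sugar transporters, 14 iron and siderophore genes, 18 of conidiation, 16 of sexual development, 20 of cell wall synthesis, 7 of autolysis and 10 of pH signalling. The siderophore list had 11 of 14 log2 fold changes below 0 with a median of -0.28, with means of 8270 in the deletion and 9783 in wild type for sidD, a nonribosomal peptide synthetase gene.

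Larger classes, taken by words in the gene descriptions, showed where the called genes lay. Among 474 transporters 11 rose and 4 fell, 3.17% against 1.88% of all genes tested. The falls included AN5067 and AN5083 of the chromosome III stretch, which add to that share. Among 563 oxidoreductases found by these words 11 rose and none fell, 1.95%. Of these, 360 had a log2 fold change above 0 against 200 below, with a median of 0.15. The words missed trxB, a putative thioredoxin reductase gene that was called lower, so the absence of falls holds only for the descriptions matched. Of 256 zinc cluster transcription factors 3 rose and 1 fell, of 138 glycoside hydrolases 2 rose and 1 fell, and of 122 peptidases 1 fell. The zinc cluster gene that fell, AN5070, lies in the chromosome III stretch, and the glycoside hydrolase gene that fell, AN12279, was listed at 0 in the deletion. Among 43 polyketide and nonribosomal peptide synthase entries npgA was the 1 call. None of 106 ribosomal protein genes was called, and 95 of them had a log2 fold change below 0 with a median of -0.16. Of 35 heat shock and chaperone genes, 215 kinases, 46 proteasome genes and 12 sugar transporters found by description none was called.

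The genes called on glucose with urea were set beside the same contrast in the other media, each of which has its own libraries of both strains. Of the 120 rises, 45 (37.5%) were also called higher on fructose with urea, where 0.833% of all genes tested rose and the 45 were 62.5% of its 72 rises. On fructose with ammonium, where 1.12% of all genes tested rose, 56 of the 120 (46.7%) were called higher, 57.7% of the 97 rises there. On glucose with ammonium, where 1.06% rose, 62 (51.7%) were, 67.4% of the 92 rises there. Calls in either direction made up 2.22% of genes tested for fructose with urea, 2.51% for fructose with ammonium and 1.91% for glucose with ammonium. No gene was called in opposite directions on glucose with urea and in another medium. With the threshold set aside the direction was mostly shared: in the same order of media 115, 118 and 118 of the 120 genes had a positive log2 fold change, against 47.5%, 48.0% and 47.1% of all genes tested. The median log2 fold change of the 120 genes was 1.86 on glucose with urea, by which they were chosen, and 1.07, 1.23 and 1.35 in those 3 media.

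Counted per gene, 29 of the 120 rises were called in all 4 media and 40 on glucose with urea alone. The 29 included gfdB, sec13, vps20, AN5370 and AN6573, the last being named after its values were seen. Among the 40 were dlpA, AN6668, capA and AN2039. capA had means of 108 in the deletion and 119 in wild type on fructose with urea, 92.6 in the deletion and 115 in wild type on fructose with ammonium, and 91.5 in the deletion and 88.3 in wild type on glucose with ammonium. The wild type mean of 61.8 on glucose with urea was thus the lowest of the 8 group means for capA. AN6668 had means of 90.7 in the deletion and 69.6 in wild type on fructose with urea, 57.6 in the deletion and 29.0 in wild type on fructose with ammonium, and 25.1 in the deletion and 8.19 in wild type on glucose with ammonium.

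A call in 1 medium and none in another does not show a different effect, so the difference itself was tested for 8357 genes from the authors' deposited fold changes and the recovered standard errors. No gene passed in any of the 3 comparisons, by a normal test with Benjamini-Hochberg adjustment. The smallest adjusted p was 0.70 against fructose with urea, 0.79 against fructose with ammonium and 1.0 against glucose with ammonium, while 250, 223 and 67 genes had an unadjusted p under 0.05. The smallest p against fructose with urea belonged to AN6668, with a difference of 2.84 ± 0.75 on the log2 scale (unadjusted p 1.6e-04), and against fructose with ammonium to capA, with 1.24 ± 0.32 (unadjusted p 9.5e-05). On glucose with urea the adjusted p fixed a standard error of its own for 1229 genes, and the other genes had theirs from the other media. The deviates of the difference had a robust SD of 0.867, 0.801 and 0.520 in the 3 comparisons, under the 1 that a well-scaled test would give. In the same order 1126, 1156 and 665 of the 8357 genes had a standard error of their own in both media, so borrowed errors weigh on each SD. Rescaled by that SD, the test called 0, 2 and 131 genes, so the count against glucose with ammonium depends on that scaling. The 2 genes against fructose with ammonium were capA and AN9344, the second of which was not called on glucose with urea. The 131 included 21 of the genes called on glucose with urea, among them furG with its 3 neighbours, AN7539, capA, AN6668 and AN10722.

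The falls were set beside the other media in the same way. Of the 42 genes called lower, 33 were also lower on fructose with urea and 32 on fructose with ammonium, where 1.39% of genes tested fell in each, and 34 on glucose with ammonium, where 0.845% fell. In all 3 of these media 28 were lower. The strain markers and the chromosome III stretch weigh on these counts: of the 24 falls outside it with a deletion mean above 0, 16, 14 and 16 were called lower in those media, 11 in all 3 and 4 in none. AN3378, atrA, AN2844 and llmI were among the 11. AN10722, with orthologs that act as deubiquitinases, was among the 4, with means of 637 in the deletion and 2048 in wild type on glucose with urea and between 621 and 755 in the 6 other groups. It is named here after its values were seen, as the gene with the highest wild type mean among the falls.

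**Figure D5:**
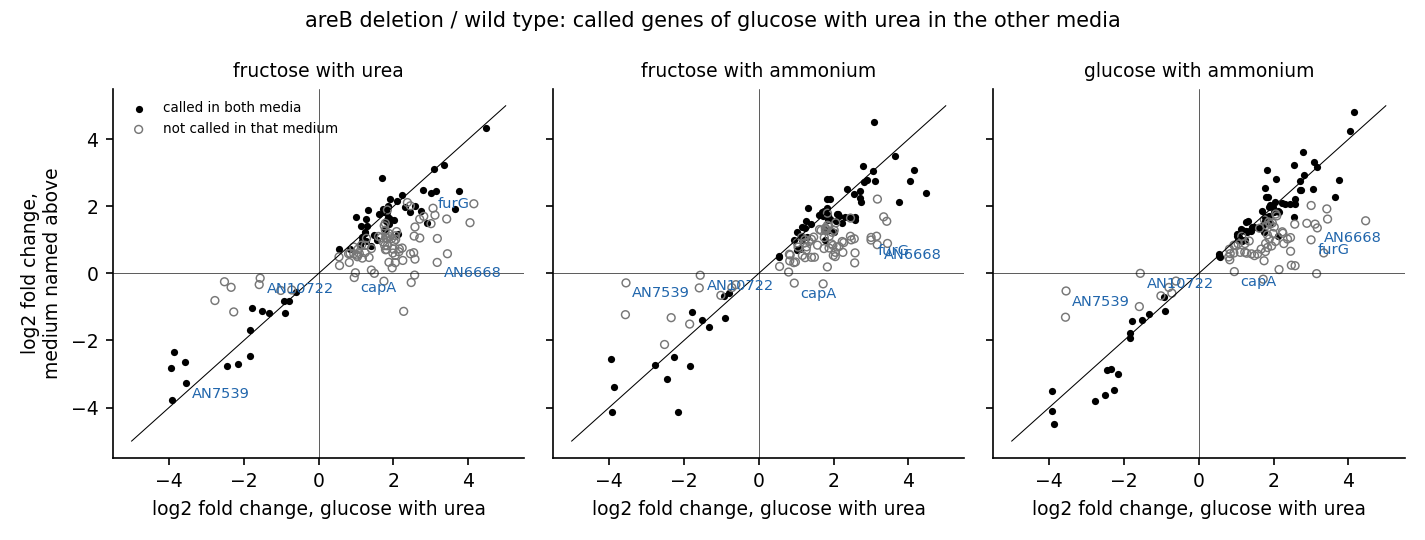
Log2 fold changes, areB deletion against wild type, for the called genes of glucose with urea with a deletion mean above 0, with glucose with urea on the x axis and 1 other medium per panel on the y axis, and the line of equality. Filled points were called in both media. Most points share a sign in both media and lie nearer to 0 on the y axis, the medium whose values did not choose them. AN7539 and furG were not called on glucose with ammonium, where they stand at -0.52 and 1.00.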

How the data were processed

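Libraries were assigned to groups by their strain and treatment labels. Per the submitters' processing notes, the authors used Trimmomatic and FastQC along with HTSeq 0.9.1, DESeq2 1.16.1 and GATK. Aligner, build, annotation and strand setting were not given in the sources used here. Overlapping and near-identical genes were therefore not checked. The authors deposited, for each medium, a fold change, which is a ratio with the areB deletion on top, an adjusted p-value, and for each group a signal, the mean of normalized counts. The authors' means summed to 2905000 in the deletion and 3009000 in wild type on glucose with urea. The p-values set each difference against variation between biological replicates, 3 per group, as the authors' model estimated it. Whether the model took that variation from the compared groups alone or from all groups was not given in the sources used here. The p-values are therefore not read as the scatter within the libraries of a single comparison.

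From these values, p was recovered by inverting the Benjamini-Hochberg adjustment, and the standard error is the log2 fold change divided by the normal deviate of that p. A tied p was used only where the range of deviates it allows was at most 0.1 of the deviate, and deviates under 0.2 were not used. Differences between media were tested with a normal test over all genes, adjusted by Benjamini-Hochberg. The step was tested on simulated data with known fold changes. Those fold changes were not moderated, so the simulation checks the inversion and not the standard errors of moderated fold changes like the deposited ones. Of the 8728 genes, 89 had no adjusted p and were left out of calls, and the largest absolute log2 fold change among them was 1.15. Neighbours came from RefSeq assembly ASM1142v1, which matched 8258 genes and 155 of the 162 called genes, and no coordinates are given. Python 3.11.15, pandas 2.3.3, numpy 2.4.6, scipy 1.17.1 and matplotlib 3.10.9 were used.

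The members and the gene lists were chosen with earlier results of these data known. The genes named were the strain markers, the 15 largest rises and the 15 largest falls among called genes with a mean of at least 10 in a group, every called gene with a symbol or on a list of gene names (not the classes taken from descriptions), areA, nmrA, meaB, tamA and creA, and runs of at least 3 called neighbours. Other genes are said to be named after their values were seen, or stand as a neighbour or an uncalled list member. Alternatives were other thresholds, a minimum mean, centring, rescaled deviates, a ratio of means with a pseudocount, and leaving out marker loci and runs of genes that fell.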

Additional observations from a re-analysis of the deposited data

How the results depend on the processing

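The 162 calls became 107 at an adjusted p under 0.01 and 344 when the recovered deviates were rescaled by their robust SD of 0.818, and the 120 rises became 74 and 239 under the same changes. The 42 falls became 105 under rescaling, 26 without the strain markers and the runs of neighbours that fell, and 24 without the chromosome III stretch and the genes listed at 0 in the deletion, the last chosen after seeing the data. The other settings moved the total to between 144 and 196. The tests of a different effect between media gave 0 genes with own standard errors only and after centring, and with rescaled deviates, chosen after seeing the data, 2 genes against fructose with ammonium and 131 against glucose with ammonium. No value changed direction, but this is no check, since thresholds, rescaling and left-out genes cannot change a direction. A pseudocount added to both means cannot reverse their ratio either. Computed as a ratio of the authors' means with a pseudocount of 1, the log2 ratio of 155 genes, out of the called genes with the strain markers and main regulators, lay within 1 standard error of the deposited log2 fold change and that of 18 did not. With a pseudocount of 10 these numbers were 115 and 58. Leaving out each replicate in turn was not run, as values per library were not used here. No paired analysis was possible because the columns hold group means and carry no replicate numbers. Depth per library is unknown, so what a count of 0 allows cannot be given, and 501 genes differed by at least 1 on the log2 scale, up or down, without a call.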

Other observations

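The genes below were picked after their values were seen, and no theme is drawn from them. AN2850, with orthologs that methylate histone H3 at lysine 4, had a mean of 310 in the deletion against 139 in wild type, a log2 fold change of 1.12 ± 0.25 in the authors' deposited table (adjusted p 9.9e-04), and it was called higher in all 4 media. AN2650 and AN9373, zinc cluster transcription factors, had means of 293 and 253 in the deletion against 43.6 and 70.8 in wild type, and both were called higher in the authors' deposited table on glucose with either nitrogen source, AN9373 also on fructose with ammonium. AN6707 and AN0040, with orthologs that maintain mitochondrial DNA as a helicase and a DNA polymerase, had means of 162 and 397 in the deletion against 89.8 and 203 in wild type, both called higher. AN6896, whose orthologs act in the DNA replication checkpoint, had a mean of 303 in the deletion and 121 in wild type and was called higher in all 4 media.

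AN5198, with orthologs that carry amino acids, had a mean of 280 in the deletion against 136 in wild type, 1.01 ± 0.27 in log2 units in the authors' deposited table (adjusted p 0.016), and it was called higher in all 4 media. AN10949, with orthologs among drug-exporting ATP-binding cassette transporters, had a mean of 689 in the deletion against 154 in wild type, so that it and atrA, called lower, moved in opposite directions. AN5046, which encodes the defensin-like peptide anisin-1, had a mean of 18.2 in the deletion and 1.10 in wild type, 2.57 ± 0.76 in log2 units in the authors' deposited table (adjusted p 0.039). On the other 3 media its log2 fold changes in the authors' deposited table were 0.43, 0.61 and 0.23, none called.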
